A study of Mus musculus with 2 samples.

Results

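Neurexins, neuroligins and leucine-rich repeat transmembrane (LRRTM) proteins are the adhesion molecules that join the sending and receiving sides of a synapse. EGR1 binding was described here at 9 of their genes: the neurexin genes Nrxn2 and Nrxn3, the neuroligin genes Nlgn1, Nlgn2 and Nlgn3, and Lrrtm1, Lrrtm2, Lrrtm3 and Lrrtm4. The genes were listed by family, and an EGR1 peak was counted for a gene when its centre fell in the gene body or within 10 kb of any of its transcription start sites (TSSs) in GENCODE release M21. By this rule 19 of the 12014 EGR1 peaks belonged to the 9 genes, and 5 of the genes had at least 1 peak. Of all 22028 protein-coding genes, 39.4% had at least 1 peak by the same rule, with the higher shares of longer genes given below. EGR1 binding had been measured by ChIP-seq, sequencing the DNA recovered with an anti-EGR1 antibody, in frontal cortex micro-dissected from male mice of 6 weeks. The mice were F1 hybrids of 129SvEv females and C57BL/6N males and carried no mutation or treatment in the labels. The 2 ChIP experiments pooled 4 to 5 mice each, and a peak list merged over both was analysed. All cell types of the tissue were mixed in it. A second sample, input DNA from the same kind of tissue, had no processed file among those analysed here. Each peak comes with an irreproducible discovery rate (IDR), which is small when the peak ranked high and alike in both experiments, and the list ends at an IDR of 2%. With 1 merged list there is no spread between replicates, no test between samples and no read depth behind a peak, so counts, shares and medians are given beside those of all peaks or all genes.

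EGR1 is a zinc-finger transcription factor whose gene is switched on within minutes of neuronal activity, and it binds a GC-rich element. Neurexins sit mainly on the presynaptic membrane, and neuroligins and LRRTMs on the postsynaptic membrane are among their ligands. A neurexin gene is read from an upstream promoter that gives the long α form and from a promoter far inside the gene that gives the short β form. The place of a peak relative to alternative promoters therefore matters for these genes.

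The sequences of 5 Nrxn2 peaks are shown because this gene had the most peaks and the only 2 exact EGR1 elements among the 19 peaks. The peak called middle is the middle one by position of these 5, not of all peaks of the gene. Sequences are from GRCm38.p6, the mm10 build, 5′ to 3′, with positions counted from 1. The reference is of the C57BL/6J strain, so the 129SvEv allele of the hybrid mice can differ from what is printed. Capitals mark the EGR1 element GCGTGGGCG or GCGGGGGCG on either strand, or a site with 1 mismatch to it. The lowest-IDR peak of the gene has no capitals because its closest match had 2 mismatches.
Nrxn2 peak nearest to the long-form start, chr19:6420884-6421133, plus strand: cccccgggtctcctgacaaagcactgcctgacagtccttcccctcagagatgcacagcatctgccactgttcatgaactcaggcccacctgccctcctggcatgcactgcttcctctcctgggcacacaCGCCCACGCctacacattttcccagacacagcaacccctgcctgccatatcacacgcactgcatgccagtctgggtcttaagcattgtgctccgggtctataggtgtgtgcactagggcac
Nrxn2 middle peak, chr19:6492469-6492564, plus strand: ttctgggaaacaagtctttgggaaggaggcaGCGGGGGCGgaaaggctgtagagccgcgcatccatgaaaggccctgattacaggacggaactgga
Nrxn2 peak before the short-form start, chr19:6496934-6497183, plus strand: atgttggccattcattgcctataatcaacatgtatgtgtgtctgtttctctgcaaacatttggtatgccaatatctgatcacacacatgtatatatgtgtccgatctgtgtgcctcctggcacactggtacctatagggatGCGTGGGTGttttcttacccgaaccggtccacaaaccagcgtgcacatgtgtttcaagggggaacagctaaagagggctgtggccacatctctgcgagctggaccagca
Nrxn2 peak of lowest IDR, chr19:6423326-6423427, plus strand: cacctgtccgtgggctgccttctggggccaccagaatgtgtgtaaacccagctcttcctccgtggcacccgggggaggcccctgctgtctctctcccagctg
Nrxn2 last peak, chr19:6504016-6504180, plus strand: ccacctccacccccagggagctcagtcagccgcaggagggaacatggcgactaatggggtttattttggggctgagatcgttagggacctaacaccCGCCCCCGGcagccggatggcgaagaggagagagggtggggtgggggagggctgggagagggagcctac

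Peaks of 4 further genes are shown next, because they are the peak of lowest IDR in each gene. Capitals mark sites with 1 mismatch to the EGR1 element and, in Nrxn3 and Nlgn1, the AP-1 element TGANTCA, which is bound by FOS and JUN proteins. The Nlgn2 and Nlgn1 sequences are written in the direction of transcription, and the Nlgn2 sequence stops just before the first TSS.
Nrxn3 first peak, chr12:88738720-88738969, plus strand: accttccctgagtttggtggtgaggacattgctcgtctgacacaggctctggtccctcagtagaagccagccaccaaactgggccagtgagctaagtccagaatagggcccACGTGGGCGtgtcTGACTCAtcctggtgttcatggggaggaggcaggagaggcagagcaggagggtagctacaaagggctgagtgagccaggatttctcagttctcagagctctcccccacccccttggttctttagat
Nlgn2 promoter peak, chr11:69837785-69838024, minus strand: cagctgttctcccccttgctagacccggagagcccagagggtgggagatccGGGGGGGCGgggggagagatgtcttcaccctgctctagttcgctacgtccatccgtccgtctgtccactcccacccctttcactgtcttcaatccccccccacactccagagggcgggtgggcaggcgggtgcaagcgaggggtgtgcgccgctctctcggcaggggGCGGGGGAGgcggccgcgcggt
Nlgn3 peak of lower IDR, chrX:101314089-101314251, plus strand: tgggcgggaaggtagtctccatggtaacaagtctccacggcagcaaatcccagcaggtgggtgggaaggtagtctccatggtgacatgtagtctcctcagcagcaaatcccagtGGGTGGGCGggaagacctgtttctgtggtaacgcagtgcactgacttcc
Nlgn1 intronic peak, chr3:26230116-26230379, minus strand: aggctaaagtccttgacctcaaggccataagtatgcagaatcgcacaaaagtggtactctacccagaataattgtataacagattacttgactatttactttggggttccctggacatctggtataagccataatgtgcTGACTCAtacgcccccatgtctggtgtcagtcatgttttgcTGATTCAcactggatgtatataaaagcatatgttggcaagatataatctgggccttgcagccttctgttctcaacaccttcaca

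The EGR1 peaks lay mainly within the gene bodies, which the rule counts in full. Of the 19 peaks, 15 lay in introns, 1 in an exon of a noncoding transcript, 1 in an exon holding 5′ untranslated sequence, and 2 upstream of the gene. An intronic peak can also be close to an alternative promoter, as were those 221 bp from a Nlgn3 start and 612 and 1690 bp from Nrxn2 starts. The centre was within 2 kb of a TSS of the gene itself for 5 peaks (26.3%, 95% Wilson interval 11.8 to 48.8). Counting the TSSs of any gene, it was 6 peaks (31.6%, interval 15.4 to 54.0), against 63.6% of the 11938 peaks on assembled chromosomes. These intervals cover counting error only, and peaks of 1 gene are not independent of each other.

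The families differed in their counts of peaks, which the rule takes over gene bodies of unlike length. The 2 neurexin genes held 13 peaks, the 3 neuroligin genes held 6, and the 4 LRRTM genes held 0. Per 100 kb of gene, Nrxn2 had 5.58 peaks and Nrxn3 0.37. Nlgn1 had 0.22, Nlgn2 13.64 and Nlgn3 7.46, so the densities of neurexin and neuroligin genes overlapped. Every Nlgn2 peak lay upstream of the gene, so that its density counts peaks outside the length by which it is divided. Over the whole annotation, 39.4% of the 22028 protein-coding genes had at least 1 peak by the same rule. That share was higher for longer genes, at 32.7% of genes under 30 kb, 50.7% of those from 30 to 300 kb and 69.7% of those of 300 kb or more. The TSSs of the 9 genes were joined into 33 groups of nearby starts, with starts up to 500 bp apart in 1 group. A peak centre lay within 1 kb of 5 of the 33 groups, and the same was true of 13.9% of the 52638 groups of all protein-coding genes. Of the 5 groups, 1 belonged to the neurexins, 4 to the neuroligins and 0 to the LRRTMs. Among the neuroligin groups, those of Nlgn1-205 and Nlgn1-204 were reached by the same peak. The transcripts Nlgn1-204 and Nlgn3-204 code for no protein in this annotation.

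**Figure D1:**
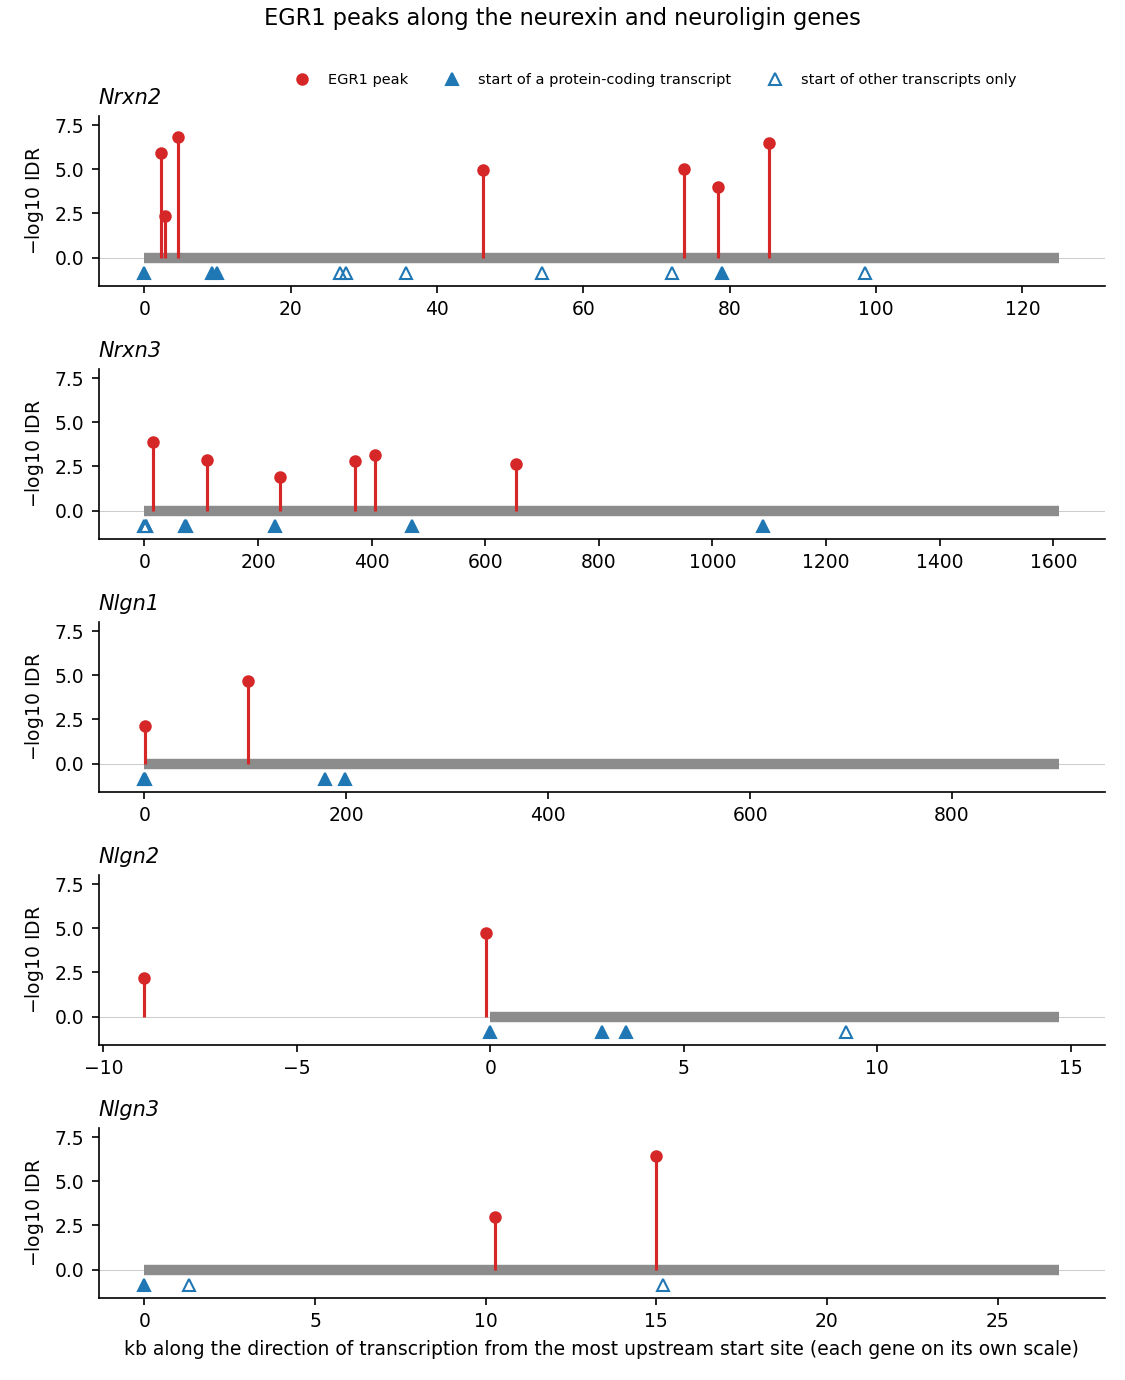
EGR1 peaks along the 5 neurexin and neuroligin genes that had any. The horizontal axis is the distance in kb from the most upstream TSS in the direction of transcription, on a scale of its own for each gene, the height of each red line is the −log10 of the IDR, grey bars are gene bodies and blue triangles are groups of start sites. Nrxn2 had 7 peaks spread over its first 85.4 kb, and no Nrxn3 peak lay beyond 654.4 kb of that gene's 1610 kb.

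Nrxn2, which encodes neurexin-2, had 7 peaks, the most of the 9 genes. The gene runs for 125 kb on the plus strand of chromosome 19, from 6418731 to 6544169, with 18 annotated transcripts that begin at 10 groups of starts. Its peaks amounted to 5.58 per 100 kb. Of the 7099 protein-coding genes of 30 to 300 kb, 18 had 7 or more peaks, and the median was 1.

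The peaks of Nrxn2 formed a cluster near the first long-form promoter and another around the short-form promoter. The first start group, whose coding transcripts give proteins of 1503 to 1703 amino acids, had no peak within 1 kb. A group of 3 peaks lay next to it in introns, 2278, 2753 and 4646 bp downstream of the first TSS, with IDRs of 1.21e-06, 0.00423 and 1.5e-07. The first of these carried an exact GCGTGGGCG on the minus strand at 6421013 to 6421021, in capitals in the first sequence printed. The second was 225 bp away and ranked at percentile 76.2 of IDR, where low percentiles are the most reproducible peaks. The third, at 102 bp a narrow peak, had the lowest IDR of all 19 and ranked at percentile 9.5. The start group at 9.2 kb, whose transcripts code for 1503 and 1710 amino acids, is a further long-form start and had no peak within 1 kb. The group at 9.9 kb, with a protein of 216 amino acids, had none either. The nearest centres were 4546 and 5269 bp away.

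The short-form start group of Nrxn2 lies 78.9 kb into the gene. Its most upstream TSS, at 6497671, is that of a noncoding transcript, Nrxn2-211. Transcripts coding for 660 and 353 amino acids begin a little downstream, at 6497828 and 6497835. The centre of the peak at chr19:6496934-6497183 was 612 bp upstream of the Nrxn2-211 start, with an IDR of 0.000105. It was the 1 neurexin peak within 1 kb of any neurexin start, and it held a GCGTGGGTG, the element with the substitution C8T, where the motif base comes first and positions count from the 5′ end of the motif. This start group had a CpG ratio of 0.77, and the first start group of the gene 0.69. The start group at 9.2 kb, which also begins transcripts of long proteins, had 0.87. The CpG ratio is the observed number of CpGs over the number that the base composition would give. For starts it was taken from 250 bp before to 50 bp after the most upstream TSS of the group.

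Peaks flanked the short-form start on both sides. Upstream, a 96-bp peak at chr19:6492469-6492564 had an IDR of 9.53e-06 and an exact GCGGGGGCG at 6492500 to 6492508, which overlaps a GGGCGG, the element of SP and KLF factors. It was 1690 bp downstream of the start of a noncoding transcript, Nrxn2-217. Downstream, 6263 bp beyond the start of Nrxn2-203, the peak at chr19:6504016-6504180 had an IDR of 3.24e-07 and a site with the substitution G1C. The remaining peak, at chr19:6464847-6465108, was set apart by gaps of 41.4 and 27.4 kb. It lay in an exon of a transcript with a retained intron, with an IDR of 1.11e-05, and its nearest TSS was that of AC167245.1, an antisense gene inside Nrxn2, 4871 bp away.

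Nrxn3, which encodes neurexin-3, had 6 peaks, all in introns and none within 2 kb of a start. It is a gene of 1610 kb on the plus strand of chromosome 12, from 88722876 to 90334935, so that the density was 0.37 peaks per 100 kb. Among the 567 protein-coding genes of 300 kb or more, 26 (4.59%) had 6 or more peaks. The 6 peaks lay 16.0, 109.4, 238.2, 371.1, 406.8 and 654.4 kb from the first TSS, with gaps of 35.4 to 247.4 kb between them. For the last of them the nearest TSS was that of another annotated gene, Gm23989, 54081 bp away.

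The reproducibility of the Nrxn3 peaks was lower than that of the Nrxn2 peaks in this list. Their IDRs were 0.000134, 0.00136, 0.0123, 0.00154, 0.000729 and 0.00224 in the order of position, with a median of 0.00145, against a median of 9.53e-06 in Nrxn2. All 6 Nrxn3 peaks were over 2 kb from any TSS, and the median over all such peaks of the list was 0.00125. The lowest Nrxn3 value was higher than 6 of the 7 Nrxn2 values. The median GC content was 46.3% in Nrxn3 peaks and 57.3% in Nrxn2 peaks. No Nrxn3 peak held an exact EGR1 element, and 3 of the 6 held a site with 1 mismatch.

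The first Nrxn3 peak had the lowest IDR of that gene and the most crowded sequence. At chr12:88738720-88738969 an ACGTGGGCG, the element with the substitution G1A, ran from 88738831 to 88738839. It overlapped a CACGTG, the E-box of bHLH factors, and the AP-1 element TGACTCA began a few bases after it, at 88738844. Peaks 2 and 6 carried the substitutions C8T and C2T. The third, which had the highest IDR of the 19 and ranked at percentile 91.8, contained 0 CpGs and came no closer to the element than 3 mismatches.

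No start of Nrxn3 had a peak within 2 kb. The closest coding start was that of Nrxn3-201, which codes for 1100 amino acids, 230.5 kb into the gene and 7.7 kb from a peak centre. The nearest peak centre was 37.8 kb from the start of Nrxn3-205, which codes for 1571 amino acids, and 435.2 kb from the short-form start, which codes for 430 and 567 amino acids. At the first TSS, where no protein-coding transcript begins in this annotation, the nearest peak was 14.9 kb upstream. That peak, at chr12:88707857-88708120, had an IDR of 1.01e-05, lower than any of the 6 counted, and fell outside the 10 kb limit. The short-form start had a CpG ratio of 0.59 and the first TSS 0.25.

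Among the neuroligins, EGR1 peaks were at or beside a start in all 3 genes, though not always at the start of a coding transcript. Nlgn2, which encodes the neuroligin of inhibitory synapses, is a compact gene of 14.7 kb on the minus strand of chromosome 11, from 69823122 to 69837784. A peak at chr11:69837761-69838024 was centred 109 bp upstream of the first TSS, that of Nlgn2-202, with an IDR of 1.77e-05 and a GC content of 70.5%. This was the most GC-rich of the member peaks. It had sites with the substitutions C8A and C2G and 3 copies of GGGCGG. The other peak counted for Nlgn2 was 474 bp wide, at chr11:69846486-69846959, with an IDR of 0.00650. It was 8939 bp upstream of Nlgn2 but 47 bp from the TSS of Plscr3, a phospholipid scramblase gene, so its link with Nlgn2 rests on the 10 kb limit alone.

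Nlgn1, which encodes the neuroligin of excitatory synapses, had 2 peaks in 906 kb, on the minus strand of chromosome 3 from 25426215 to 26332460. The promoter peak, at chr3:26331791-26332054, was centred 537 bp downstream of the start of Nlgn1-205 in an exon holding 5′ untranslated sequence. It was also 53 bp from the start of Nlgn1-204, which has a retained intron, and 28 bp from that of A830092H15Rik, an antisense gene, so that these starts cannot be told apart as its target. The peak had an IDR of 0.00760, at percentile 84.5, a CpG ratio of 0.71 and a site with the substitution G6T.

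The intronic peak of Nlgn1 had the better IDR rank and differed in sequence. It lay 102.2 kb from the first TSS and 76.9 kb from the nearest one, at chr3:26230116-26230379, with an IDR of 2.24e-05, at percentile 34.6. Its GC content was 42.4%, the lowest of the 19 peaks, and its CpG ratio 0.17. The closest match to the EGR1 element had 2 mismatches, while the AP-1 element occurred at 26230193 to 26230199 and again at 26230234 to 26230240. The Nlgn1 starts at 179.2 and 198.7 kb, which give proteins of 814 or 843 amino acids, were 76.9 and 96.5 kb from a peak.

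Nlgn3, an X-linked gene whose product is found at both excitatory and inhibitory synapses, had 2 peaks in its introns and none at its main start. It spans 26.8 kb of the plus strand, from 101299168 to 101325963, and the annotated gene Gm21986 overlaps it. The start group of its coding transcripts, with proteins of 510 to 845 amino acids, was 10.2 kb from the nearest peak centre. The peak at chrX:101309330-101309579 had an IDR of 0.00112 and was 10.3 kb from that first TSS. The peak at chrX:101314089-101314251 had an IDR of 3.87e-07, at percentile 16.3, and was centred 221 bp upstream of the start of Nlgn3-204, a noncoding transcript. It held a GGGTGGGCG, with the substitution C2G, and 2 copies of GGGCGG. A further peak 6.8 kb past the end of the gene, at chrX:101332626-101332877 with an IDR of 0.00381, was outside the rule.

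**Figure D2:**
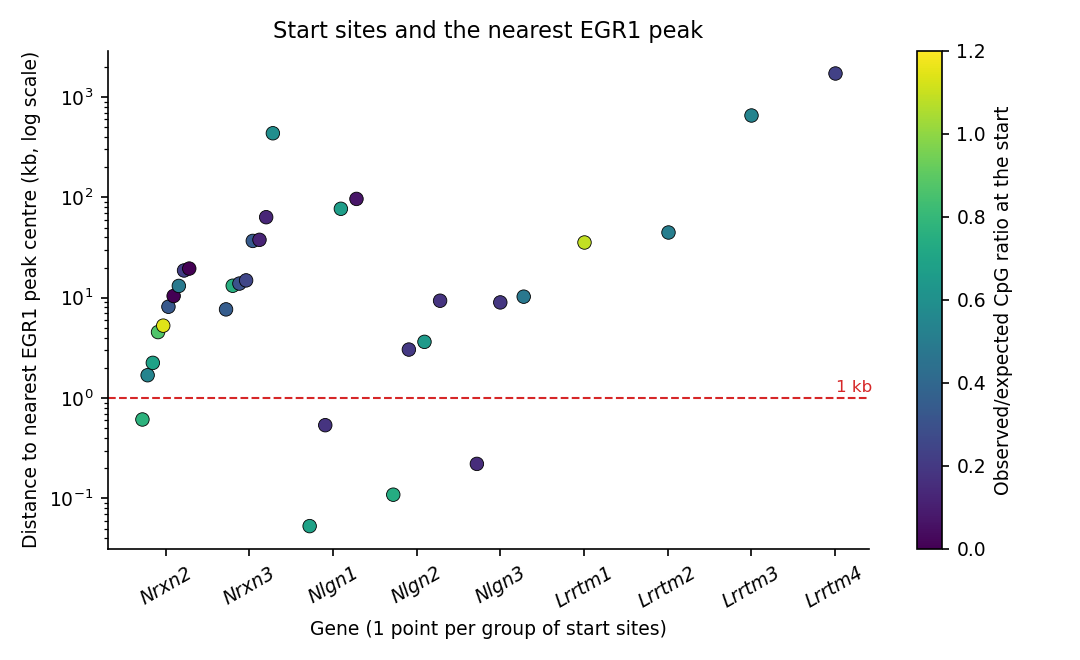
Distance from each group of start sites of the 9 genes to the nearest EGR1 peak centre, in kb on a log scale, with 1 point per group, coloured by the CpG ratio around the start. The 5 points under the dashed line at 1 kb belong to Nrxn2, Nlgn1, Nlgn2 and Nlgn3, and all 4 LRRTM points are above it, the lowest at 36.1 kb for Lrrtm1.

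No LRRTM gene had an EGR1 peak by the rule. These genes encode leucine-rich repeat proteins of the postsynaptic membrane, and LRRTM proteins bind neurexins, while LRRTM3 and LRRTM4 also bind heparan sulfate proteoglycans. Lrrtm1 is a gene of 15.1 kb on chromosome 6, from 77242689 to 77257791, and its closest peak lay 21.2 kb beyond it, at chr6:77278875-77279126, with an IDR of 0.000176. Lrrtm2 covers 6.02 kb of chromosome 18, from 35209003 to 35215024, with the closest peak 44.8 kb away and an IDR of 0.00150. Lrrtm3 covers 162 kb of chromosome 10, from 63928472 to 64090277, and Lrrtm4 791 kb of chromosome 6, from 80018877 to 80810143. Their closest peaks were 498.8 and 928.7 kb away, so that the surroundings of these genes were empty of peaks as well. A gene without a listed peak had none that passed the IDR limit in both experiments, which does not show that EGR1 was absent.

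The absence of peaks at LRRTM genes went with no single CpG ratio at the start. The CpG ratio around the start was 1.09 in Lrrtm1, 0.51 in Lrrtm2, 0.54 in Lrrtm3 and 0.23 in Lrrtm4. The 5 starts with a peak within 1 kb had ratios of 0.77 in Nrxn2, 0.74 in Nlgn2, 0.15 in Nlgn3 and 0.18 and 0.69 in Nlgn1. The CpG ratios of both sets overlapped. GC content in the same windows was 43.3 to 48.7% at the LRRTM starts and 48.3 to 71.0% at those 5 starts. Starts without a peak within 1 kb reached 73.3%, at the Nrxn2 start 9.9 kb into the gene. A link of GC content with the absence of peaks was not tested.

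Lrrtm1, Lrrtm2 and Lrrtm3 each lie inside an α-catenin gene, on its opposite strand. The α-catenins link cadherins to the actin cytoskeleton. Ctnna2, the host of Lrrtm1, had 2 peaks, of which the peak at chr6:77862934-77863097 had an IDR of 3.66e-07 and was 605.2 kb from Lrrtm1. The other is the peak 21.2 kb from Lrrtm1 given above. Ctnna3, the host of Lrrtm3, had 1 peak, 466 bp from its own TSS with an IDR of 0.00827, which is also the closest to Lrrtm3. Ctnna1, the host of Lrrtm2, had 1 peak, the closest to Lrrtm2.

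In CpG ratio, the member peaks were closer to the distal peaks of the list than to the list as a whole. An exact EGR1 element, searched on both strands, was in 2 of the 19 (10.5%, 95% Wilson interval 2.94 to 31.4), against 16.6% of all peaks. At most 1 mismatch was found in 11 (57.9%, interval 36.3 to 76.9), against 69.8% of all peaks. The median CpG ratio was 0.32, with quartiles of 0.17 and 0.42, against 0.60, with quartiles of 0.31 and 0.82, over all peaks, and 15 of the 19 were under the all-peak median.

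The gap in CpG ratio was narrower between peaks at a like distance from a TSS. For the 13 member peaks over 2 kb from any TSS, the CpG ratio was 0.23 at the median and GC content 52.7%. The 4340 such peaks of the whole list had 0.29 and 52.3%. For the 6 member peaks within 2 kb the median CpG ratio was 0.66, against 0.76 for all 7598 such peaks. An exact element was in 1 of the 13 distal member peaks (7.69%), against 6.87% of all distal peaks. Near a TSS it was in 1 of the 6 (16.7%), against 22.2%. A site with at most 1 mismatch was in 5 of the 13 distal member peaks (38.5%), against 49.1% of all distal peaks, and in 6 of the 6 near a TSS, against 81.6%.

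**Figure D3:**
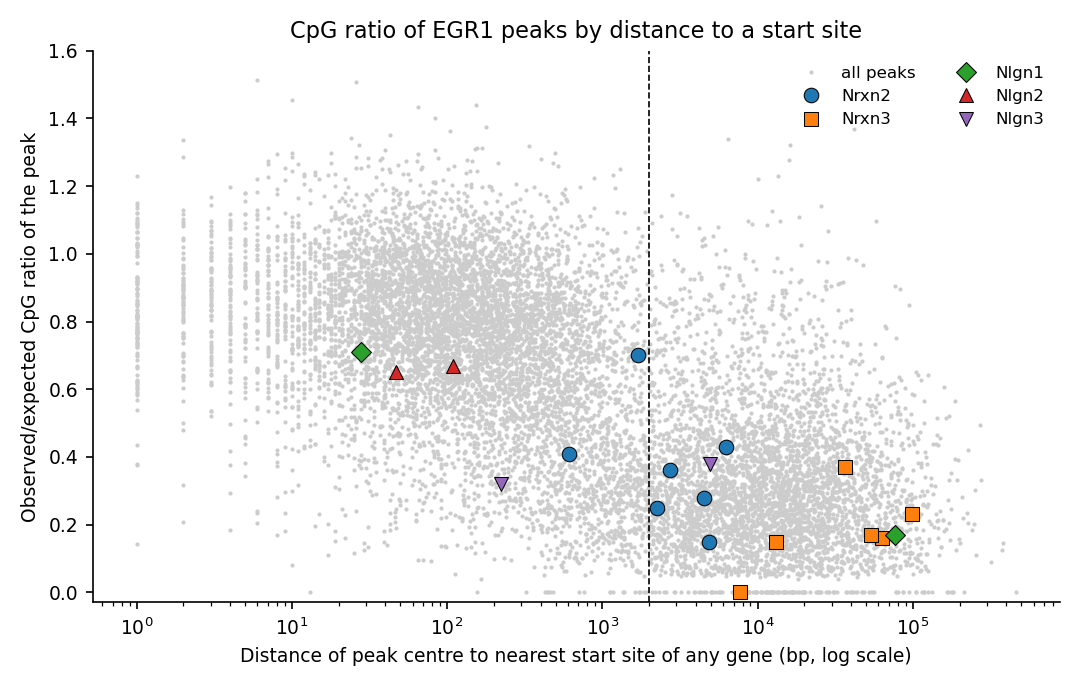
CpG ratio of each EGR1 peak against the distance of its centre to the nearest TSS of any gene, in bp on a log scale. Grey dots are all peaks on assembled chromosomes, coloured marks are the 19 member peaks by gene and the dashed line is at 2 kb. The 6 Nrxn3 peaks lie right of the dashed line, from 7654 to 99141 bp, with ratios up to 0.37, while the Nlgn2 peaks lie at the left with 0.65 and 0.67.

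By rank, the member peaks were spread over the whole list. Their IDR was 0.000134 at the median, between quartiles of 1.03e-05 and 0.00189, and the median over all peaks was 0.000325. Of the 19, 10 ranked better than the middle of the list and 11 had an IDR of 0.001 or less. Each of the 5 genes kept at least 1 peak at that stricter limit. For the distal member peaks the median was 0.000729, against 0.00125 for all distal peaks.

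Elements of other factors were counted in the same peaks. GGGCGG, which can overlap the EGR1 element, was in 6 (31.6%), against 55.8% of all peaks. TGANTCA was in 2 (10.5%), against 6.48%, and CACGTG in 1 (5.26%), against 7.46%. These shares vary with distance from a TSS. Over 2 kb from any TSS, GGGCGG was in 15.4% of member peaks, against 28.3%, and TGANTCA in 15.4%, against 11.1%. Within 2 kb, GGGCGG was in 66.7%, against 71.5%, and TGANTCA in 0, against 3.83%. The CREB element TGACGTCA was in 0, against 1.30%, and the NRF1 element in 0, against 3.68%. All were searched on both strands, and a count of 0 in 19 peaks says only that these letters were not in these windows.

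Promoter windows of RefSeq, from 250 bp before to 50 bp after the start on GRCm38.p6, were matched for 6 of the 9 genes, with 10 promoters. Nrxn2, Nlgn3 and Lrrtm2 were not matched. None of the 10 held an exact EGR1 element, against 3.47% of the 32851 promoters of all genes. A site with at most 1 mismatch was in 3 of the 10, against 27.2%.

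Other genes of synaptic adhesion were read from a list of 48 ligands, partners and further organizers of synapses. Of these, 33 (68.8%) had at least 1 peak and 15 had none. They held 77 peaks, 40 of them (51.9%) within 2 kb of a TSS of the listed gene, and 28 of the genes had such a peak. Of all peaks, 63.6% were within 2 kb of a TSS, but there the TSSs of any gene were counted. No share over all protein-coding genes is given here for the 28. This list was chosen with results of these data known, and many of its genes are long. The share of 68.8% is therefore to be read against the values by length given above.

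By family, the counts of genes with a peak were as follows. All 3 calsyntenins, all 3 netrin-G ligands, all 3 latrophilins, all 4 SynCAM proteins and both MDGA proteins, which bind neuroligins, had a peak at their genes. Of the secreted neurexin ligands, 1 of 5 genes of cerebellins and C1q-like proteins and 1 of 4 neurexophilin genes had a peak. Peaks were at 3 of 4 teneurin genes, 4 of 6 SLITRK genes, 2 of 3 genes of LAR-type receptor phosphatases and 1 of 3 FLRT genes. These families are small and differ in gene length, with which the background share runs from 32.7% to 69.7%, and differences between them were not tested.

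Ptprs and Ntrk3 had the most peaks of the list, with 6 each. Ptprs encodes a presynaptic receptor phosphatase, and 5 of its peaks were within 2 kb of a TSS, that of lowest IDR, 8.17e-08, 11 bp from one. Ntrk3 encodes the receptor of neurotrophin-3 and also acts as a synaptic organizer. It had 1 peak within 2 kb of a TSS, and its lowest IDR was 3.16e-07. Tenm2, a teneurin gene, had 5 peaks, with a lowest IDR of 0.000259, and Igsf9b, whose product acts at inhibitory synapses, had 4, none within 2 kb of a TSS, with a lowest IDR of 0.000903.

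Among the genes with 3 peaks, Lrrc4 had a lowest IDR of 1.59e-07, Adgrl1 of 5.67e-07, Mdga2 of 7.06e-07 and Lrrc4b of 2.24e-06. Lrrc4 and Lrrc4b encode postsynaptic netrin-G ligands, Adgrl1 a latrophilin and Mdga2 an inhibitor of the neurexin-neuroligin bridge. All 3 Lrrc4b peaks were within 2 kb of a TSS. Nrxn2, with 7, had more peaks than any gene of the list.

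**Figure D4:**
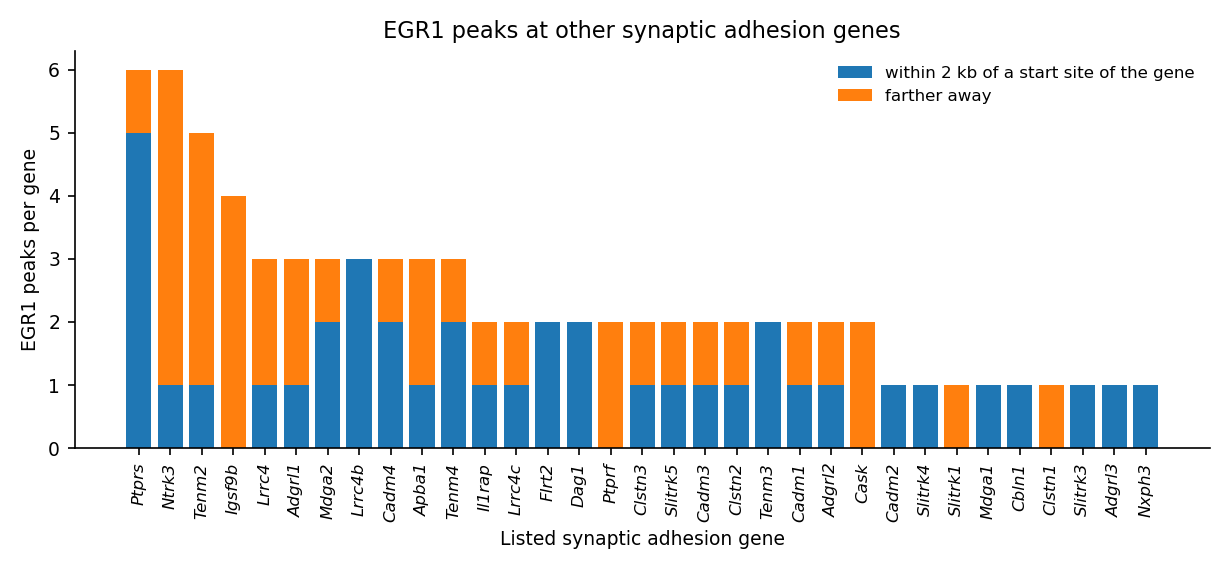
Number of EGR1 peaks at each of the 33 listed adhesion genes that had any, in peaks per gene, split into those within 2 kb of a TSS of the gene (blue) and those farther away (orange). Ptprs and Ntrk3 had 6 each, with 5 and 1 of them near a TSS.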

How the data were processed

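Per the labels and the study's methods, the authors trimmed reads of 100 bp, aligned these with Bowtie to mm10, ran SPP on each of the 2 experiments to call peaks and kept peaks with an IDR of 2% or less. The submitters' processing notes also list cutadapt, Bowtie2 2.2.9 and bedtools 2.26.0. The deposited value is the IDR of each merged peak, to be read as a q-value, with its chromosome, start and end. No read counts were in the list, so depth per peak is unknown.

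How positions are counted is not given in the sources used here; BED counting was assumed, and positions are written counted from 1. Sequence results leave out peaks on scaffolds. Peak centres were placed against GENCODE M21 and GRCm38.p6 with Python 3.11.15, numpy 2.4.6, pandas 2.3.3, scipy 1.17.1 and pysam 0.24.0, samtools 1.23.1 and matplotlib 3.10.9. The search, assignment and CpG steps were tested on simulated data, and 200 of 200 cases were recovered in each.

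The members and lists were chosen with earlier results of these data known. Named were all 9 member genes with every peak, the 8 listed partner genes with the most peaks (ties by the lowest IDR), the α-catenin genes, and genes that overlap a member or own the nearest TSS. Genes without a peak were to be named if 10 or fewer. Alternatives covered the IDR limit, overlap against centre, the window, the gene body, basic transcripts, peaks nearest to another gene, motif mismatches, a fixed window and the counting of positions. The input DNA was not analysed here.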

Additional observations from a re-analysis of the deposited data

How the results depend on the processing

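Of 54 values recomputed under other settings, 47 stayed within the limits set for them and 7 did not. The limit was 1.5 times the reported value for a count and the 95% interval for a share or median. With 19 peaks these intervals are wide, and 4 values inside them still moved by over 1.5 times. The share of peaks within 2 kb of an own TSS was 15.8% with basic transcripts, against 26.3%. The share with an exact element was 18.2% at an IDR of 0.001 or less, against 10.5%. The median IDR, reported as 0.000134, was 1.11e-05 at that limit and 1.77e-05 without gene bodies. Keeping only peaks with an IDR of 0.001 or less left 11 of the 19 member peaks and lowered the share of protein-coding genes with a peak from 39.4% to 28.8%. That share was 34.0% with a window of 2 kb, 37.1% without gene bodies and 38.2% with basic transcripts only, and fewer intervals or peaks could be counted in each. With basic transcripts, 1 in place of 2 member peaks lay within 1 kb of an alternative start, because the noncoding start of Nlgn3-204 is not in that set. Allowing 1 mismatch raised the share of member peaks with the EGR1 element from 10.5% to 57.9%. In every setting run on it, the number of member genes with a peak was 5. The LRRTM genes stayed at 0 in every setting, but the settings could not decide this. Counting any overlap of a peak reaches too little farther, as the closest peak lay 21.2 kb from an LRRTM gene. Most other settings can only remove peaks. No paired analysis was possible because the 2 experiments were merged in 1 peak list, and none of them could be left out. The depth behind a peak, and whether a gene without a peak lacked reads, could not be judged from this list.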

Other observations

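Narrow member peaks mostly had lower IDRs than wider ones. Of the 19, 4 were under 200 bp wide, 3 in Nrxn2 and 1 in Nlgn3, and their median IDR was 3.56e-07, against 0.00112 for the other 15. A 250-bp peak of Nrxn2, with an IDR of 1.21e-06, ranked better than the 96-bp peak, with 9.53e-06. In the whole list, 1802 of the 11938 peaks (15.1%) were under 200 bp wide, with a median IDR of 2.16e-07, against 0.000796 for wider peaks. This was looked at after the values were seen, and the part of peak calling or merging in it was not tested.

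Repeat sequence, the share of bases masked in the reference, was alike in both sets taken whole. It was 0 in 9 of the 19 member peaks (47.4%) and in 45.6% of all peaks.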
